A study of Mus musculus with 14 samples.

Results

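The genes described here encode the NF-kB transcription factor subunits and their inhibitors. They are 10 of the 21887 protein-coding genes of the mouse: Rela, Relb, Rel, Nfkb1 and Nfkb2 for the subunits, Nfkbia, Nfkbib, Nfkbie and Nfkbiz for the inhibitor family, and Tnfaip3 for the enzyme A20. The readout was open chromatin, as ATAC-seq peaks that lay in the gene body or within 50 kb of either end. In all 14 deposited peak lists together, 858 of 541504 peaks lay at these 10 loci. Merged over the lists wherever they overlapped, they formed 169 of 127850 regions. Of the 169 regions, 12 had a peak in all 14 lists and 75 in only 1 list.

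The cells were mouse neural stem cells (mNSC) grown with the growth factors EGF and FGF, and every group held 2 libraries. EV cells carried an empty vector and ZR cells the ZFTA-RELA fusion, the oncogenic driver of a type of ependymoma. Fusion cells were also profiled under titles that name DMSO (ZR_DMSO), GSK (ZR_GSK343, with 10 µM GSK343, an inhibitor of the histone methyltransferase EZH2, for 96 h) and dmCitra (ZR_dmCitra, with 10 mM citraconate, which the study design calls an ACOD1 antagonist). A further series held DMSO_50K and Citraconate_50K (10 mM citraconate). The vehicle labels conflict: both ZR_DMSO libraries are labelled PBS against their titles, EV replicate 1 is labelled DMSO and EV replicate 2 PBS, and both ZR libraries are labelled PBS. The DMSO_50K libraries carry an empty-vector label and the Citraconate_50K libraries a fusion label, so that the treatment and the cell line cannot be told apart in that series. For citraconate the protocol names 24 h and 48 h and gives neither to a library. Nothing in the labels says that the replicates were separate cultures, how the fusion was delivered, or whether a line is a clone, so p-values measure only the spread between these libraries, which could be technical.

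NF-kB proteins bind DNA as dimers at a short motif called the κB site. In resting cells the inhibitors IκBα, IκBβ and IκBε hold the dimers in the cytoplasm, and signalling through the IκB kinases destroys the inhibitors and lets the dimers enter the nucleus. Several inhibitor genes are themselves known NF-kB targets, which gives the pathway its negative feedback. RELA, the protein joined to ZFTA in the fusion, is a main activating subunit of the canonical arm.

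The lists differed in length and in peak width, and 1 group stood apart. The deposited lists held 12554 to 60472 peaks. The ZR_DMSO lists were among the shortest, at 12554 and 21143, and their peaks were narrow (median 226 and 186 bp). The median was 330 and 260 bp in the ZR_GSK343 lists and 419 to 533 bp in the other 10. Of 7 neural stem cell markers, 5 and 6 had a gene-end peak (within 1 kb of either end of the gene) in the EV lists and 1 to 3 in the other 12, where Sox2 and Sox1 had none; Pax6 had none in any list. Of 5 microglial and other myeloid markers, Ptprc, Aif1, Csf1r and Cx3cr1 had no gene-end peak in any list, which left 0 or 1 per list. Astrocyte markers reached 0 or 1 of 3, mesenchymal markers 0 to 3 of 4 and endothelial markers 0 or 1 of 3. The DMSO_50K lists went against their empty-vector label: they held 80.3% and 85.7% of all regions gained in ZR over EV. A gained region has by rule no peak in either EV list at equal length. The EV shares of 0% and 4.30% were therefore set by that rule and are no contrast. The DMSO_50K lists are called the libraries labelled DMSO_50K below. The part of peak width, list length and cell state in the results was not tested.

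The promoter sequences of 4 genes are shown because their start peaks differed in presence or order between groups and because each holds a match to the κB consensus, in capitals. Each is the 250 bases before a RefSeq-annotated start (assembly GRCm38.p6, the coordinates of mm10), written 5′ to 3′ on the gene's strand. Of the 10 genes, 7 had an entry in the promoter table; Relb, Nfkb1 and Nfkbiz did not.
Tnfaip3, chr10:19015411-19015660, minus strand: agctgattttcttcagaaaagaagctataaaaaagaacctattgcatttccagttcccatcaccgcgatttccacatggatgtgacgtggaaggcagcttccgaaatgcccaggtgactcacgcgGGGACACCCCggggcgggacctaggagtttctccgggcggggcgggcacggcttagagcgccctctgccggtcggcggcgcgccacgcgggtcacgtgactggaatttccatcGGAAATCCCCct
Nfkbia, chr12:55492648-55492897, minus strand: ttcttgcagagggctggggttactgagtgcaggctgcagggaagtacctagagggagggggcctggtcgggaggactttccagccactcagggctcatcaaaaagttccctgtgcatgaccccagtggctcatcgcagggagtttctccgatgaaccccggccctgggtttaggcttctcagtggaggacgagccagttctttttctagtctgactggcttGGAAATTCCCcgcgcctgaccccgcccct
Nfkb2, chr19:46304487-46304736, plus strand: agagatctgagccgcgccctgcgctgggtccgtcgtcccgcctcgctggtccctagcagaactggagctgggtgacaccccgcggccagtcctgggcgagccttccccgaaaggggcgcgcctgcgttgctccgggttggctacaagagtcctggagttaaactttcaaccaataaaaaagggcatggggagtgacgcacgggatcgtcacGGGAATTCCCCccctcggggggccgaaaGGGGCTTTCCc
Rel, chr11:23770970-23771219, minus strand: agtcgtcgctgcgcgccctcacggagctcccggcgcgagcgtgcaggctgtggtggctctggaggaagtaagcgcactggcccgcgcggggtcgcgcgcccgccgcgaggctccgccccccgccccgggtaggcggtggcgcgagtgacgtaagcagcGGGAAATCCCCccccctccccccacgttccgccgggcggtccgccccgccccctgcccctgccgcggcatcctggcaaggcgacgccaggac

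In Tnfaip3 the matches began 125 and 12 bases before the start, and in Nfkbia the match began 29 bases before it. Nfkb2 had a match 11 bases before its first start and a pair that overlap each other at 39 and 38 bases. Rel had an overlapping pair at 92 and 91 bases. Searched on both strands, with overlapping matches counted apart, the 10-letter consensus was present in 7 of the 10 windows, 3 of them of Nfkb2, from 5 of the 7 genes with an entry; the fifth was Nfkbie, 106 bases before its start, and Rela and Nfkbib had no match. Over all protein-coding genes, 7.91% of 21255 windows of this length held a match. A match is a run of letters and not a measured binding site.

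Nearly all of the 10 genes had open chromatin at their start in nearly every library. For each gene the peak of best q-value within 1 kb of a start was taken (for Relb, Nfkb1 and Nfkbiz, within 1 kb of either end of the gene), and its rank in the library's own list, 1 being the strongest, was used as its level. Such a start peak was present in all 14 lists for Rela, Relb, Rel, Nfkb2, Nfkbia and Nfkbiz, in 13 for Nfkb1, Nfkbib and Nfkbie, and in 12 for Tnfaip3. All 5 absences fell in ZR_DMSO lists, which were among the shortest. The share of all genes with such a peak in each list is not given here, so these counts are no result about the family. Ordered by the median rank over the lists that held the peak, Relb came first at 2148.5, followed by Rel at 4220.5, Tnfaip3 at 4514, Nfkbiz at 5220, Nfkbia at 5350.5, Nfkb2 at 6099, Nfkbib at 8916, Nfkbie at 9293, Nfkb1 at 9834 and Rela at 14650. The ranges of neighbouring genes in this order overlapped throughout, and because the lists differ in length a different rank is not by itself a change in accessibility. Where groups are compared by rank, the place as a percent of the list's length is therefore given or counted as well.

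**Figure D1:**
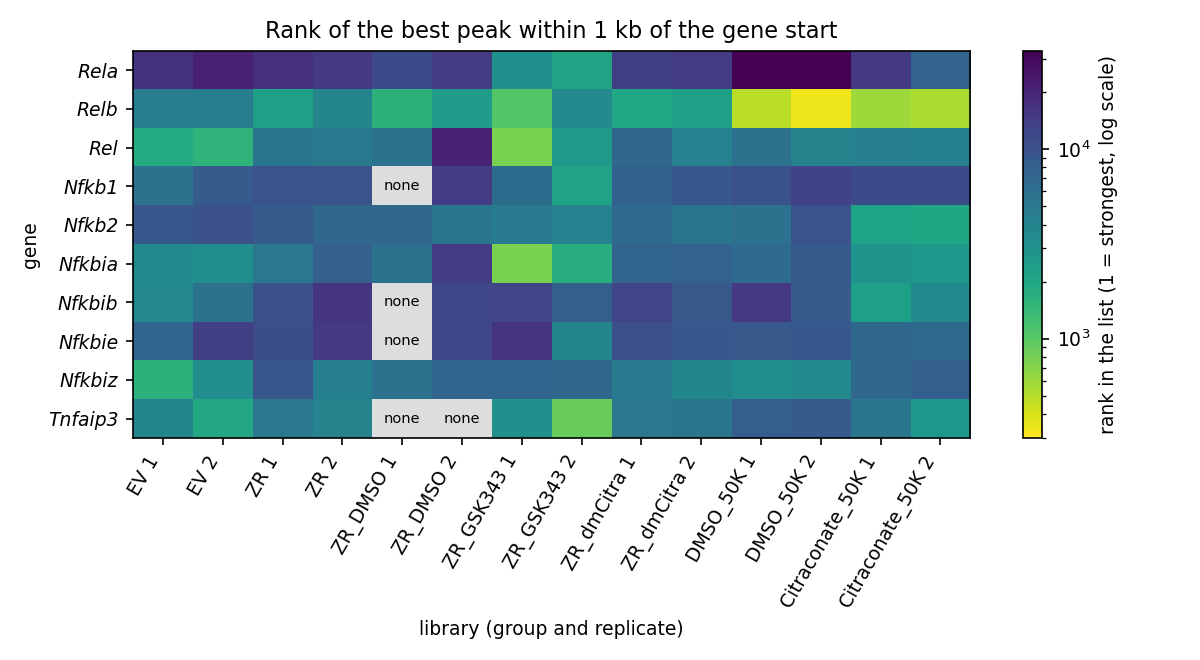
Rank of the start peak of each gene (rows) in each of the 14 peak lists (columns), on a log colour scale where yellow is the top of the list and dark purple the bottom. Relb ranks between 338 and 4586 in every list, Rela ranks at 32418 and 32994 in the libraries labelled DMSO_50K, and the 5 cells marked none all belong to the ZR_DMSO lists.

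Among the subunits, Relb, the partner of p52 in the non-canonical arm, had the strongest start peak (gene at chr7:19606217-19629438). It ranked 4574 and 4586 in the EV lists and 2276 and 3898 in the ZR lists. In the second series it was 491 and 338 in the libraries labelled DMSO_50K and 595 and 533 in Citraconate_50K. Relb was thus within the top 4586 peaks of all 14 lists, and at the length of the shortest list (12390 peaks) its start peak was still in all 14.

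Rela itself (chr19:5637442-5648134) had the weakest start peak of the 10 genes by median rank. It ranked 16620 and 21343 in EV, 17214 and 15223 in ZR, 11398 and 14428 in ZR_DMSO, and 13732 and 14556 in ZR_dmCitra. In the short ZR_DMSO lists these places were 92.0% and 69.1% of the length, with peaks of 112 and 369 bp. In ZR_dmCitra they were 30.0% and 33.1%. The ZR_GSK343 lists stood apart at 3126 and 2123 (16.2% and 3.71%), with peaks of 995 and 1419 bp. Its ranks of 32418 and 32994 in the libraries labelled DMSO_50K compared with 14744 and 7528 in Citraconate_50K. As a percent of the list's length these were 61.5% and 54.7% against 46.5% and 25.6%. EV and ZR overlapped in rank at the native Rela start but not as a percent of the list (47.5% and 49.1% in EV, 38.4% and 34.2% in ZR).

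Rel, which encodes c-Rel, a subunit best known from lymphocytes (chr11:23736847-23770969), was close to the top in EV at 1830 and 1543 and lower in ZR at 5325 and 4947. It ranked 5699 and 20556 in ZR_DMSO, 778 and 2611 in ZR_GSK343, and 6825 and 4116 in ZR_dmCitra. In the second series it ranked 5610 and 4028 in the libraries labelled DMSO_50K and 4236 and 4205 in Citraconate_50K, which overlap as ranks but not as percent of the list (10.7% and 6.67% against 13.4% and 14.3%). The Rel locus was otherwise bare: its 1 region over all 14 lists was the start peak.

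The precursor genes differed from each other. Nfkb1, which encodes p105 and p50 (chr3:135584655-135691969), ranked 5674 and 8352 in EV and 9834 and 9836 in ZR. In ZR_DMSO its start peak was absent from replicate 1 and ranked 14428 in replicate 2, whereas it ranked 6300 and 2199 in ZR_GSK343. Nfkb2, which encodes p100 and p52 (chr19:46300994-46312400), kept a start peak in the top 12390 of all 14 lists. It ranked 8992 and 10333 in EV, 8761 and 7006 in ZR, and 2172 and 2078 in Citraconate_50K against 5610 and 9958 in the libraries labelled DMSO_50K. Nfkb2 also had the widest start peak by median, at 1922.5 bp over the 14 lists.

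Among the inhibitors, Nfkbia, which encodes IκBα (chr12:55489409-55492647), ranked 3528 and 3298 in EV and 5002 and 7822 in ZR. It ranked 778 and 1705 in ZR_GSK343 against 5699 and 14428 in ZR_DMSO, and 3020 and 2678 in Citraconate_50K against 6371 and 8796 in the libraries labelled DMSO_50K. In each of these 3 pairs of groups the values did not overlap, either as ranks or as percent of the list. Nfkbib, which encodes IκBβ (chr7:28758251-28766644), ranked 3708 and 5716 in EV and 10223 and 15978 in ZR, and 2322 and 3475 in Citraconate_50K against 15191 and 8519. Its start peak was absent from ZR_DMSO replicate 1. Nfkbie, which encodes IκBε (chr17:45555700-45563169), ranked 7132 and 13625 in EV and 10615 and 15223 in ZR, which overlap.

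Nfkbiz, which encodes the nuclear IκBζ, a cofactor rather than a cytoplasmic inhibitor (chr16:55811375-55838954), stood lower in the citraconate lists of the second series. Relb stood lower there too, and by percent of the list so did Rel, Nfkb1 and Nfkbie. Rela, Nfkb2, Nfkbia and Nfkbib stood higher by both measures. Of 10049 genes, 24.5% stood higher by both measures and 9.3% lower, and the share by percent alone was not counted. Nfkbiz ranked 3293 and 3506 in the libraries labelled DMSO_50K and 6854 and 8052 in Citraconate_50K. In the first series it ranked 5699 and 7229 in ZR_DMSO and 4741 and 3830 in ZR_dmCitra. EV ranked 1607 and 3298 and ZR 9457 and 4315. Nfkbiz also held a second strong region inside the gene, chr16:55820344-55822728, 8969 bp from the nearer gene end, with a peak ranked between 1493 and 4179 in all 14 lists.

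Tnfaip3 encodes A20, which edits ubiquitin chains to shut down NF-kB signalling (chr10:19000910-19015410). Its start peak ranked 3900 and 1930 in EV, 5002 and 4026 in ZR, 3126 and 892 in ZR_GSK343, and 5097 and 5340 in ZR_dmCitra. It was absent from both deposited ZR_DMSO lists. In the second series it ranked 8158 and 8796 in the libraries labelled DMSO_50K and 5188 and 2678 in Citraconate_50K. Plain ZR cells, which carry the same fusion and the same vehicle label as ZR_DMSO, thus had a strong Tnfaip3 start peak that the ZR_DMSO lists lacked.

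Start peaks were wide, except in 3 lists. Their median width was 1104.5 to 1468.5 bp in the 10 lists outside ZR_DMSO and ZR_GSK343, 671 and 1245.5 bp in ZR_GSK343, and 280.5 and 316 bp in ZR_DMSO. In ZR_DMSO the Nfkb2 start peak measured 235 and 261 bp, against 1796 to 2297 bp in the 10 lists outside ZR_DMSO and ZR_GSK343. Relative to the widths of the whole list, the median start peak lay at the percentile 61.6 and 77.7 in ZR_DMSO and between 82.3 and 95.4 in the other 12 lists.

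**Figure D2:**
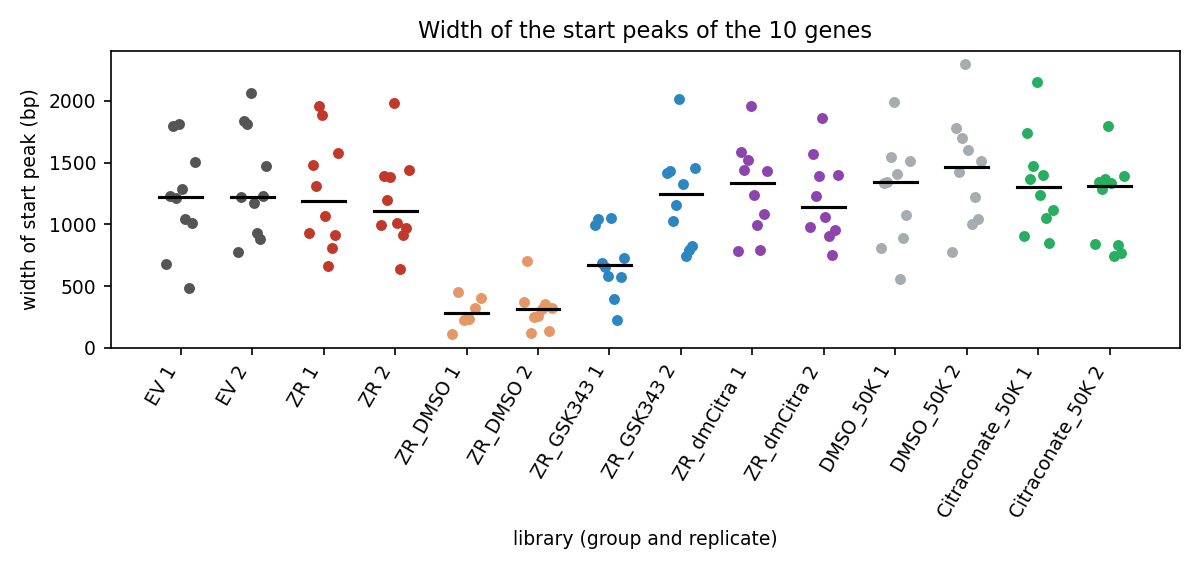
Width in bp of the start peaks of the 10 genes in each list; each point is 1 gene and the black bar is the median. The ZR_DMSO points lie between 112 and 702 bp, and ZR_GSK343 replicate 1 has a median of 671 bp.

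The first comparison set fusion cells against empty-vector cells. None of the starts differed in presence: of 9 genes with a gene-end peak (the starts of Nfkb2 lie farther inside the gene), 0 gained it, against a background of 3.09% of 11932 genes, and 0 lost it, against 6.88%. Away from the starts the loci did differ. Of 9 regions gained in ZR, 3 lay at Nfkb1 and 3 at Tnfaip3, and the 16 regions lost were spread over 7 of the 10 loci. A region was called gained where both libraries of the first group and neither of the second had a peak, with all 4 lists reduced to the length of the shortest, here 34989 peaks, and lost for the reverse. Of 87 regions at the loci, 10.3% were gained, against a background of 22% of all 60389 regions, and 18.4% were lost, against 19.3%. The lost share was near the background and the gained share below it.

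Within the Nfkb1 gene body, 2 regions were gained in ZR, at chr3:135606913-135607537 (rank 11462 and 10678) and chr3:135628596-135629339 (rank 5872 and 7822). The third, chr3:135736130-135736441, lay 44161 bp outside the gene on the side of its start peak and ranked 15628 and 18528. Neither EV list held a peak at any of the 3, even at full length. At Tnfaip3 the gained regions were chr10:19045979-19046581, 30569 bp upstream of the gene (rank 12982 and 7822), and 2 weaker ones beyond its far end, at chr10:18999795-19000266 (rank 25102 and 23163) and chr10:18996483-18996792 (rank 23654 and 24620). Nfkbia gained chr12:55473664-55474240 and chr12:55498987-55499353, 15169 and 6340 bp from the gene, at ranks of 23163 to 30362. The remaining gained region, chr17:45551992-45552342 at the Nfkbie locus, ranked 28428 and 34217 and lay nearest to Tmem151b.

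The strongest region lost in ZR was chr12:55446355-55447466 at the Nfkbia locus, nearest to Psma6, with ranks of 4574 and 2603 in EV. At full length ZR replicate 2 held it at 41410. Next came chr7:19600471-19601050 in Clasrp at the Relb locus, at 5088 and 9495, and chr17:45584176-45585866 at Slc29a1 in the Nfkbie locus, at 9549 and 9096. Inside Nfkb1, chr3:135610304-135610684 ranked 13303 and 9898 in EV and had a peak in no other list. It lay within the same gene body as the 2 gained regions. Other internal regions of Nfkb1 had a peak in both EV and both ZR lists. Among them were chr3:135674600-135675256 (19551 and 18784 in EV, 22323 and 16765 in ZR) and chr3:135670520-135671487 (30942 and 30869 in EV, 9834 and 10678 in ZR). The start peak was present in both groups too. The other Nfkb1 losses were chr3:135693100-135693309, 1131 bp from the gene, and chr3:135726076-135726402, with ranks of 19551 to 28446.

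Inside Nfkbiz, chr16:55819248-55820116 (rank 21321 and 24473) and chr16:55823764-55824151 (rank 16620 and 18784) were lost, and so was chr16:55887905-55888309 in the neighbour Nxpe3. Tnfaip3 lost chr10:19002069-19002583, inside the gene, at ranks of 23366 and 17727, and no other list held it. The 4 losses at the Nfkb2 locus lay in or near Psd, Cuedc2, Fbxl15 and Mfsd13a and the other 2 at the Nfkbie locus nearest to Slc29a1. Each of those 4, and chr17:45596659-45597625 at the Nfkbie locus, had a peak in at least 1 full ZR list, past the limit of 34989. For them the call was one of place and not of presence. A region near a neighbour belongs to these loci by distance alone, and which gene it acts on was not measured.

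For 8 of the 10 genes the ranks of the start peak did not overlap between EV and ZR. Relb and Nfkb2 ranked nearer the top in both ZR lists, 2 of 10 genes against 23.2% of the 9854 genes with a gene-end peak in all 4 lists. Rel, Nfkb1, Nfkbia, Nfkbib, Nfkbiz and Tnfaip3 ranked farther from it, 6 of 10 against 48.4%. Counted only where the place as a percent of the list did not overlap either, a rule added after the data were seen, the same 2 stood nearer the top (23.2% of all genes) and 5 farther (38.4%), without Tnfaip3. These shares were near the background and are no result about the family. Over the 10 loci as a whole, ZR lists held 51 and 50 peaks and EV lists 64 and 58 at equal length, a difference of −10.5 peaks (50.5 ± 0.707 against 61 ± 4.24, SD, n = 2). The two-sided exact permutation p was 0.333, the smallest that 2 against 2 libraries can give. With the lists as deposited the difference was −0.5 (exact p = 1), and within 10 kb of the genes it was −3.

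**Figure D3:**
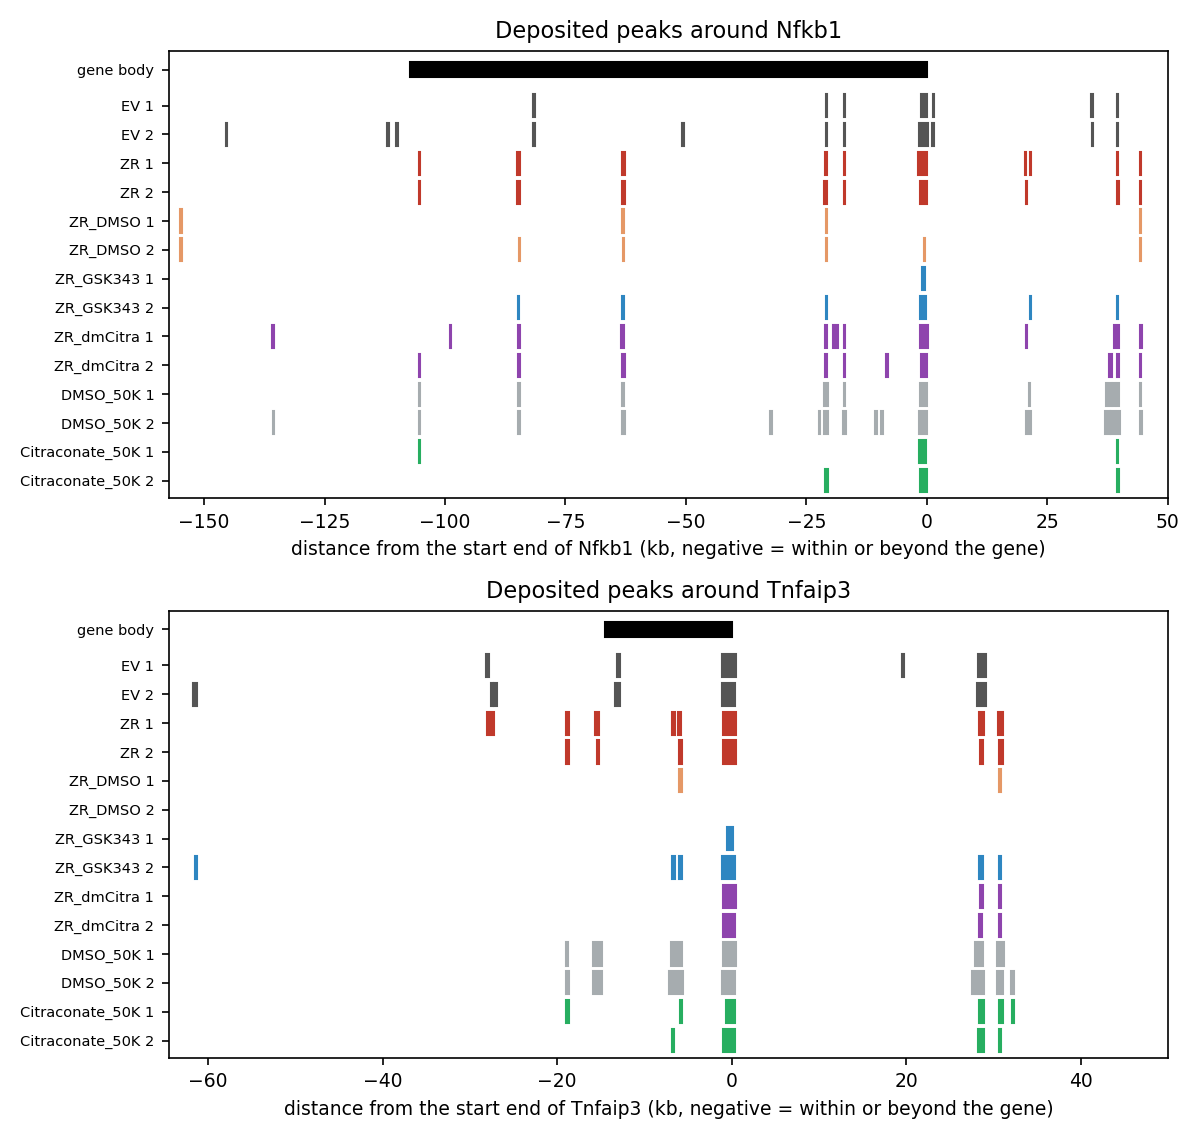
Deposited peaks around Nfkb1 and Tnfaip3 in the 14 lists (rows), against the distance in kb from the end of the gene with the start peak; the black bar is the gene body, and peaks under 0.25 kb are drawn 0.25 kb wide. The internal Nfkb1 peaks gained in ZR appear again in both ZR_dmCitra lists, in both lists labelled DMSO_50K and in ZR_DMSO replicate 2 and ZR_GSK343 replicate 2, and 1 of them also in ZR_DMSO replicate 1, and both ZR_DMSO rows lack a block at the Tnfaip3 start.

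The 9 gained regions were then looked up in the deposited lists of the other groups, which the rule had not used. The libraries labelled DMSO_50K held 8 and 9 of the 9, against 80.3% and 85.7% of all 13265 gained regions in the genome. The ZR_dmCitra lists held 7 and 7 (87.5% and 85.6% of all), the Citraconate_50K lists 3 and 3 (46.5% and 43.9%), the ZR_DMSO lists 3 and 4 (17.5% and 33.4%), and the ZR_GSK343 lists 0 and 6 (7.64% and 58.3%). The libraries with low member counts also had low shares over the genome, and they were the 3 shortest lists and Citraconate_50K. Of the 16 lost regions, ZR held 4 and 4 at full list length (25% in both, against 7.95% and 7.57% of all 11681 lost regions), and the libraries labelled DMSO_50K 6 and 7 (22.2% and 26.9% of all). The ZR_dmCitra lists held 4 and 3 (9.51% and 8.85% of all), the ZR_GSK343 lists 1 and 4 (3.23% and 13.7%), the Citraconate_50K lists 2 and 3 (8.72% and 7.83%) and the ZR_DMSO lists 0 and 0 (0.753% and 1.45%).

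**Figure D4:**
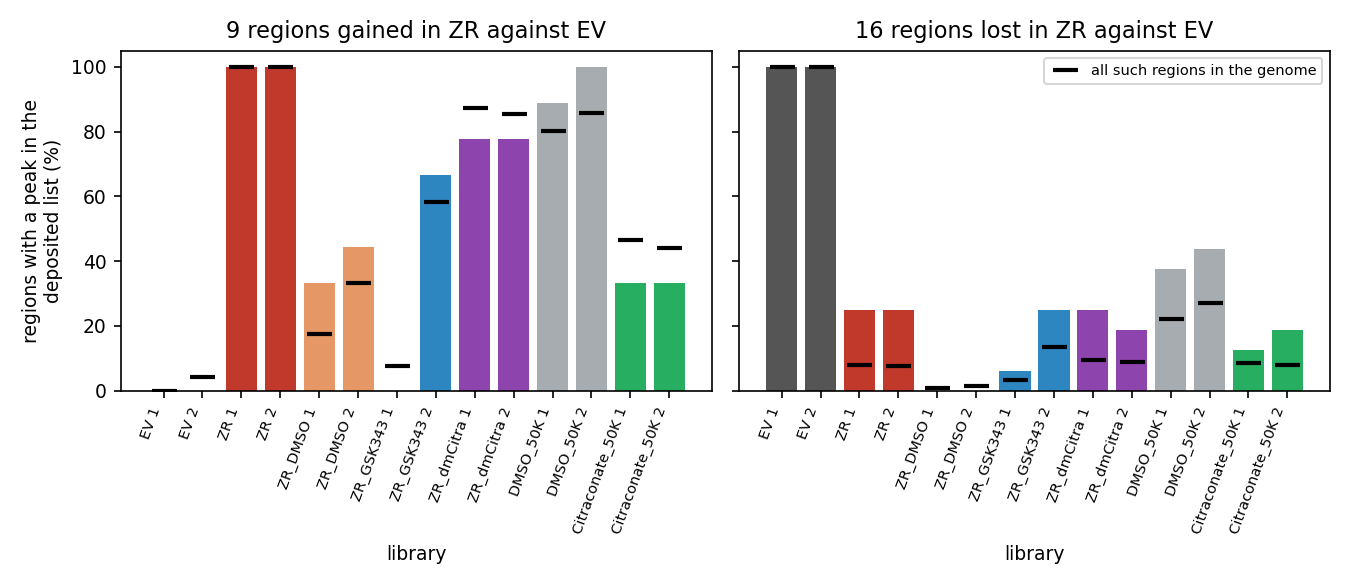
Percent of the 9 regions gained (left) and 16 regions lost (right) at the 10 loci in ZR against EV that have a peak in each deposited list; black marks give the same for all such regions in the genome. The EV and ZR bars were set by the calling rule, apart from the 25% in both ZR lists on the right; among the others the libraries labelled DMSO_50K reach 88.9% and 100% on the left and Citraconate_50K 33.3% in both.

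The GSK343 comparison asked what an EZH2 inhibitor changed in fusion cells. Start peaks were called as gained at Nfkb1 and Tnfaip3, and so were 3 regions at the Rela locus, while 3 regions around Nfkb1 were called as lost. At 12390 peaks per list, 8 of 48 regions were gained (16.7%, background 10.5% of 21517) and 3 were lost (6.25%, background 7.77%). Split by place, 6 of 25 regions at gene ends were gained (24%, against 20.2% of all gene-end regions) and 2 of 23 elsewhere (8.70%, against 3.96%). Of 9 genes with a gene-end peak, Nfkb1 and Tnfaip3 gained it, against 20.4% of 9649 genes, and 0 lost it, against 0.394%.

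The Tnfaip3 start ranked 3126 and 892 in ZR_GSK343 with no peak in ZR_DMSO, and the Nfkb1 start 6300 and 2199 with a peak at 14428 in 1 ZR_DMSO list at full length. At the Rela locus the gained regions were chr19:5648580-5649298, 446 bp beyond the 3′ end of Rela (rank 12248 and 7514), chr19:5609323-5610414 in Kat5 (rank 2700 and 6736) and chr19:5689518-5690670 in Map3k11 (rank 2315 and 7311). All 3 also had a peak in the deposited list of ZR_DMSO replicate 2, at ranks of 14428, 16974 and 14428, past the limit of 12390. The others lay at Psd and Fbxl15 in the Nfkb2 locus and in Ppp1r37 and Clasrp in the Relb locus. The regions lost were chr3:135670961-135671260 inside Nfkb1 (rank 6952 and 7229 in ZR_DMSO), chr3:135736198-135736438 beyond its start (rank 6952 and 8554) and chr3:135537047-135537156 in Manba, which no list outside ZR_DMSO held. At full length ZR_GSK343 replicate 2 still held the region inside Nfkb1, at rank 42283.

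With plain ZR as the control in place of ZR_DMSO, 9 regions were gained and 4 lost, against 7.6% and 13.8% of all 32655 regions. The starts of Tnfaip3 and Nfkb1 were not among the gained, since ZR had both. The region 3′ of Rela and the one in Map3k11 were gained against both controls. Both full ZR lists also held them, past the limit of 19239, at 39462 and 21852 for Rela and 23654 and 21852 for Map3k11. Merged over all lists, the Map3k11 stretch was part of chr19:5687954-5690670, which had a peak in all 14 lists. The regions of Nfkb1 at chr3:135670961-135671260 and chr3:135736198-135736438 overlapped regions lost against both controls. The same ZR_GSK343 libraries enter both comparisons. Among 6 genes with a start peak in all 4 lists, Rela, Rel, Nfkb2 and Nfkbia ranked nearer the top in both ZR_GSK343 lists, against 38.7% of 4538 genes, and 0 farther from it, against 16.4%. Where the percent of the list must not overlap either, Rela, Rel and Nfkbia were left, 3 of 6 against 37.4%, and 0 stood farther, against 1.43%.

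At the 10 loci, ZR_GSK343 had 29 and 32 peaks and ZR_DMSO 25 and 20 in lists of equal length, a difference of 8 (30.5 ± 2.12 against 22.5 ± 3.54, SD, n = 2; two-sided exact permutation p = 0.333). Without ZR_DMSO replicate 1 the difference turned to −4, and with the lists as deposited it was 21.5 (exact p = 0.667). The peaks covered 17.5 and 32.6 kb in ZR_GSK343 and 6.07 and 5.67 kb in ZR_DMSO, so that covered length differed more than peak number. Peaks of the whole deposited lists were also narrower in ZR_DMSO (median 226 and 186 bp, against 330 and 260 bp). Covered length over the whole lists was not counted, so this is no result about these loci.

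Citraconate in the first series was compared with the same ZR_DMSO libraries, so its calls are not independent of those for GSK343. It gained the Tnfaip3 start (rank 5097 and 5340), the Nfkb1 start (rank 7647 and 9293) and a region at a gene end of Clasrp, chr7:19604069-19604727, in the Relb locus. These were 3 of 40 regions (7.5%, background 12% of 19791). The 3 regions lost (7.5%, background 7.53%) were the same positions around Nfkb1 as for GSK343, all defined by ZR_DMSO peaks. At full length both ZR_dmCitra lists held chr3:135670961-135671260 (rank 17507 and 17089) and chr3:135736198-135736438 (rank 16642 and 17089). There the call was one of place past the limit of 12390 and not of presence. The 2 of 9 genes with a gained gene-end peak compared with 12.2% of 7866 genes, and 0 were lost, against 1.51%. In rank, 1 of 6 genes, Nfkbiz, stood nearer the top in both ZR_dmCitra lists, against 43.7% of 4687, and 0 genes were farther from it, against 14.1%. With the percent of the list added, these were again 1 of 6 against 43.7% and 0 against 0.747%. The ZR_dmCitra lists are the longer ones. By percent alone all 6 genes stood nearer the top in them, Rela for example at 30.0% and 33.1% against 92.0% and 69.1% in ZR_DMSO. The share of all genes was not counted by percent alone. With ZR as the control, 3 regions were gained and 4 lost, against 4.84% and 5.34% of all 61553 regions, and none of them was a start of the 10 genes; 3 of the 4 lost lay at Tnfaip3, among them chr10:18999795-19000266 and chr10:18996483-18996792, which ZR had gained over EV.

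In lists of equal length, peak numbers overlapped between the groups: ZR_dmCitra had 18 and 23 peaks at the loci and ZR_DMSO 25 and 20 (20.5 ± 3.54 against 22.5 ± 3.54, SD, n = 2; two-sided exact permutation p = 0.667). The lists as deposited held 67 and 63 against 25 and 52, a difference of 26.5, and without ZR_DMSO replicate 1 it was −19.5 (exact p = 0.333 for both). At equal length the peaks covered 24.2 and 27.9 kb in ZR_dmCitra and 6.07 and 5.67 kb in ZR_DMSO. Here too covered length over the whole lists was not counted.

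The second citraconate series differed at Rela and Nfkb1, where the cell line label changes with the treatment. The Rela start and 2 regions at its neighbours ranked higher in both Citraconate_50K lists. By percent of the list the region at Rnaseh2c did not. Lost were 4 regions around Nfkb1 and 1 beyond the far end of Tnfaip3. At 29432 peaks per list, 8 of 68 regions were gained (11.8%, background 9.1% of 45197) and 6 lost (8.82%, background 16.8%). At gene ends 4 of 29 were gained (13.8%, against 8.76% of all) and away from them 5 of 39 lost (12.8%, against 21.6%). By the wider gene-end rule, 0 of 9 genes were gained (background 7.47% of 11360 genes) and 0 lost (background 1.5%).

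The Rela start region, chr19:5637139-5638075, ranked 14744 and 7528 in Citraconate_50K and 32418 and 32994 in the libraries labelled DMSO_50K, where it fell past the limit of 29432 peaks. The deposited lists of all 4 libraries held it, so the difference was one of place and not of presence. At the same locus chr19:5609213-5610517 in Kat5 ranked 9187 and 8600 against 41451 and 34417, and chr19:5601739-5602462 at Rnaseh2c ranked 19676 and 23336 against none and 39445. By percent of the list, the Rnaseh2c place in DMSO_50K replicate 2 fell between those in the 2 Citraconate_50K lists. The ranked lists held 60346 peaks in that library and 31702 and 29432 in Citraconate_50K. Gains elsewhere were 2 regions near Mfsd13a in the Nfkb2 locus, and 1 each near Psma6 (Nfkbia locus), in Slc35b2 (Nfkbie locus) and in Sirt2 (Nfkbib locus), at ranks of 16168 to 27172. Of all 8 gained regions, 5 had a peak in both deposited lists labelled DMSO_50K and 2 in 1 of them; the exception was the region in Slc35b2. With the lists as deposited, 1 region was gained and 17 were lost.

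The regions lost at Nfkb1 were chr3:135628644-135629334 (rank 20117 and 19047 in the libraries labelled DMSO_50K), chr3:135607068-135607520 (27415 and 27071), chr3:135674600-135675256 (17443 and 27071) and chr3:135736136-135736709 (21144 and 11634). Neither Citraconate_50K list held any of these 4. At Tnfaip3, chr10:18999496-19000586 ranked 5167 and 6894 and was absent from both Citraconate_50K lists, and at Nfkbia chr12:55518079-55518610 ranked 20117 and 19674. Of the 9 regions gained in ZR over EV, 4 overlapped a region lost here (44.4%), 3 of them at Nfkb1 and 1 at Tnfaip3, which made up 4 of the 6 regions lost here. Over the genome, 2372 of 13265 gained regions did so (17.9%). Of the same 9, 0 overlapped a region gained here (5.56% over the genome). Of the 16 regions lost in ZR, 1 overlapped a region gained here (6.25%, against 2.49%) and 0 a region lost here (against 3.85%). These overlaps were not tested. The 2 comparisons share no library.

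In rank, Rela, Nfkb2, Nfkbia, Nfkbib, Nfkbie and Tnfaip3 stood nearer the top in both Citraconate_50K lists, 6 of 10 against 66.4% of 10049 genes. Relb and Nfkbiz stood farther from it, 2 of 10 against 9.3%. The DMSO_50K lists are the longer ones. Where the percent of the list must not overlap either, Rela, Nfkb2, Nfkbia and Nfkbib were left, 4 of 10 against 24.5%, with Relb and Nfkbiz again farther (9.3%). Tnfaip3 then overlapped. Nfkbie stood on the opposite side, at 16.9% and 15.0% in the libraries labelled DMSO_50K and 21.6% and 22.4% in Citraconate_50K. By percent alone Rel and Nfkb1 also stood farther, Nfkb1 at 36.3% and 38.9% in Citraconate_50K against 19.3% and 21.2%. The share of all genes was not counted by percent alone. The Citraconate_50K lists held 55 and 54 peaks at the loci and the libraries labelled DMSO_50K 40 and 43 at equal length, a difference of 13 (54.5 ± 0.707 against 41.5 ± 2.12, SD, n = 2; two-sided exact permutation p = 0.333). With the lists as deposited the difference turned to −20, and within 10 kb of the genes it was 2.5; the deposited lists held 52771 and 60472 peaks for the libraries labelled DMSO_50K and 31864 and 29574 for Citraconate_50K.

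**Figure D5:**
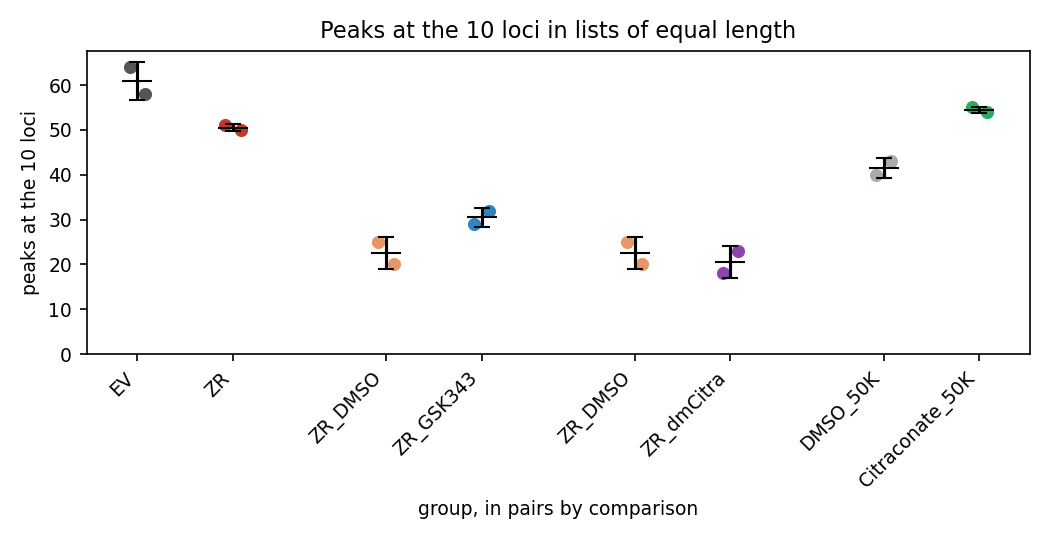
Number of peaks at the 10 loci per library, in pairs of groups with lists reduced to equal length within each pair; points are libraries, the bar is the mean and the whiskers 1 SD (n = 2). The pairs use different list lengths, so heights compare only within a pair: groups separate in 3 pairs and overlap for ZR_dmCitra and ZR_DMSO.

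The Rela locus held 28 of the 75 regions seen in a single list, out of 41 regions in all, and 26 of its peaks came from ZR_DMSO replicate 2, against 5 to 19 in the other 13 lists. Those 26 made up 50% of that library's 52 peaks at the 10 loci and had a median width of 151.5 bp. They ran across Kat5, Rela, Sipa1 and Pcnx3 rather than at starts alone. A region inside Rela, chr19:5646994-5647416, 718 bp from its 3′ end, was named after its values were seen: it ranked 32418 and 14654 in the libraries labelled DMSO_50K and 13496 and 23336 in Citraconate_50K, 47820 in ZR_GSK343 replicate 2, and had no peak in the other 9 lists.

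The upstream machinery of the pathway was read from 36 further genes (receptors, adaptors, kinases and regulators), all found in the gene table. A gene-end peak was present in each list for 14 of them and in no list for 4. In ZR against EV, 3 of 28 with a peak gained it, namely Cd40, a receptor of the TNF family, Tlr4, the receptor for bacterial lipopolysaccharide, and Nfkbid, which encodes the nuclear IκBNS. The background was 3.09% of all genes. Pdlim2, which encodes a ubiquitin ligase for nuclear RELA, lost it, 1 of 28 against 6.88%. Tlr4 ranked 7551 and 9836 in ZR with no peak in EV, Cd40 11949 and 10678 with none in EV, and Nfkbid 32477 and 31996 with a peak at 36274 in EV replicate 2 at full length. Pdlim2 ranked 28279 and 26337 in EV and had no gene-end peak in the other 12 lists.

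In ZR_GSK343 against ZR_DMSO, 4 of 26 genes gained a gene-end peak, namely Ikbkb, the kinase IKKβ, Traf3 and Tradd, both adaptors of TNF-family receptors, and Nfkbid, against 20.4% of all genes, and 0 lost one, against 0.394%. In ZR_dmCitra against ZR_DMSO, 2 of 21 gained one, Ikbkg, which encodes the kinase scaffold NEMO, and Tlr4, against 12.2%, and 0 lost one, against 1.51%. In Citraconate_50K against the libraries labelled DMSO_50K, Tradd gained it, 1 of 29 against 7.47%, and 0 lost it, against 1.5%. Ikbkb ranked 8209 and 7927 in ZR_GSK343 and was absent from both ZR_DMSO lists, while plain ZR had it at 17214 and 13244. Tlr4 stayed present in every list outside EV, ZR_DMSO and ZR_GSK343 replicate 1, and ranked between 2347 and 5431 in the 4 libraries of the second series.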

How the data were processed

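ATAC-seq libraries were made from 50000 cells each and sequenced as paired 50 nt reads, per the labels' protocols. The submitters' processing notes name mm10 as the build and BWA, SAMtools and Picard as tools, with no version. Of the peak calling, MACS2 appears in the peak names of the deposited files; its settings, any Tn5 shift and the filters were not given in the sources used here. Every peak carries the authors' score, a fold enrichment (ratio), and −log10 p-values and q-values, called per library and deposited as such; they served to rank and filter within a list only. No list gives read counts; depth is therefore unknown, and no counting interval was given.

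Peaks on chromosomes 1 to 19, X and Y were ranked by −log10 q (ties averaged). In a comparison all 4 lists were shortened to the length of the shortest, with ties at the limit drawn in a seeded random order; peaks overlapping by at least 1 bp were merged. Regions were gained or lost by presence in both libraries of 1 group and neither of the other, and the calling was tested on simulated lists. A two-sided exact permutation test compared the numbers of peaks, and no test was run for calls. Gene positions and promoters came from RefSeq tables (GRCm38.p6). Groups came from titles and labels. The 10 genes, all regions called at their loci, and the pathway genes called from a list of 36 were named by rule; a region inside Rela was added after its values were seen. Members and lists were chosen with earlier results of these data known. Percentages over all regions or genes stand in place of list tests. Alternatives were full lists, −log10 q of at least 5, 50% cover, a 10 kb window, ZR as control, a replicate block, leaving out each library and, chosen after seeing the data, dropping tied peaks and comparing places also as percent of list length. Python 3.11.15, pandas 2.3.3, numpy 2.4.6 and matplotlib 3.10.9 were used.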

Additional observations from a re-analysis of the deposited data

Results flagged for a closer look

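The Nfkbiz start peak moved in opposite directions in the 2 citraconate series. Its mean rank differed by −2178.5 in ZR_dmCitra against ZR_DMSO, nearer the top of the list in both ZR_dmCitra libraries (4741 and 3830 against 5699 and 7229), and by 4053.5 in Citraconate_50K against the libraries labelled DMSO_50K, farther from the top in both (6854 and 8052 against 3293 and 3506). By percent of the list's length both directions were the same. Relb and Rel then had the same pattern as Nfkbiz, whereas Rela, Nfkb2 and Nfkbia stood nearer the top in both series. In rank, 43.7% of 4687 genes stood nearer the top in ZR_dmCitra and 9.3% of 10049 farther in Citraconate_50K. The share of all genes that did both was not counted, so this is no trait particular to Nfkbiz. The difference between the series was not tested, the lists differ in length, and in the second series the cell line labels cannot be told apart from the treatment.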

How the results depend on the processing

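With 2 libraries per group no difference could pass a threshold, ranks carry no depth, and calls depend on list length. Of the alternatives other than leaving out a library, 31 counts of regions stayed within 1.5 times and 13 moved further. Of the peak differences 11 stayed within 1.5 times, 6 kept their sign but moved further, 2 fell to 0 and 3 changed sign. The 6 were −0.5 (as deposited) and −3 (10 kb) for ZR against EV, 21.5 and 4.5 under the same settings for ZR_GSK343, −1 with ZR as control for ZR_dmCitra and 2.5 within 10 kb for Citraconate_50K. For ZR_dmCitra the difference was 0 with −log10 q of at least 5 and with tied peaks left out. With lists as deposited, ZR against EV gave 16 gained and 10 lost, ZR_dmCitra against ZR_DMSO 25 gained, 1 lost and a peak difference of 26.5, and Citraconate_50K against DMSO_50K 1 gained, 17 lost and −20. Requiring 50% cover gave 14 gained for ZR_GSK343 and 17 for ZR_dmCitra. Within 10 kb of the genes, ZR against EV lost 8, ZR_GSK343 gained 4 and lost 1, ZR_dmCitra lost 1 with a peak difference of 2.5, and Citraconate_50K gained 2. The cause of the other moves was not tested. An alternative of 50% cover gave no peak number, since it acts on regions.

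Leaving out each library in turn, ZR against EV ranged over 9 to 17 gained, 17 to 28 lost and a peak difference of −13.5 to −5. ZR_GSK343 against ZR_DMSO ranged over 11 to 14 gained, 3 to 17 lost and −4 to 9.5, the last turning to −4 without ZR_DMSO replicate 1. ZR_dmCitra ranged over 4 to 7 gained, 3 to 22 lost and −19.5 to 0.5, turning to 0.5 without ZR_dmCitra replicate 1. Citraconate_50K ranged over 10 to 20 gained, 7 to 9 lost and 11.5 to 17. A lone library in a group loosens the calling rule, so most of these counts are higher by construction. The counts past 1.5 times were, for ZR against EV, gained 15 without ZR replicate 2 and 17 without EV replicate 1, and lost 26 and 28 without EV replicates 1 and 2; for ZR_GSK343, gained 14 without either of its replicates and lost 17 and 11 without ZR_DMSO replicates 1 and 2; for ZR_dmCitra, gained 6 without its replicate 1, and gained 7 and 6 and lost 22 and 12 without ZR_DMSO replicates 1 and 2; and for Citraconate_50K, gained 13 and 20 without its replicates 1 and 2 and 13 without DMSO_50K replicate 2.

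Replicate numbers are shared between groups, but same-numbered libraries did not deviate together: across genes with a gene-end peak in all 4 lists, their replicate differences in log2 rank correlated at r = −0.00541, 0.0481, −0.0399 and −0.0491 in the 4 comparisons. With the replicate number as a block the peak differences stayed at −10.5, 8, −2 and 13, with an exact p of 0.5, 0.5, 1 and 0.5; the smallest possible is 0.5.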
